A study of Mus musculus with 3 samples.

Results

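The cells described here are resting DN3-like thymocytes, picked out cell by cell from 3 single-cell RNA libraries of mouse thymus. A cell was a member when it held at least 1 unique molecular identifier (UMI, one counted mRNA molecule) of each of Ptcra, Rag1 and Notch3 and 0 of Cpa3, Apoe, Mki67, Top2a and Trac, and when between 500 and 5000 genes were detected and mitochondrial UMIs made up no more than 7%. The rule found 511 members among 21879 cells. They were 111 of 5516 cells of the first run (2.01%, 95% exact interval 1.66 to 2.42), 57 of 8852 cells of the second (0.644%) and 343 of 7511 cells of the third (4.57%). Intervals here and later cover counting error only.

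Thymocytes pass through CD4-CD8- double negative (DN) stages, from DN1 and DN2 to DN3 and DN4. At DN3 the recombinase made of Rag1 and Rag2 cuts the TCR loci. A productive TCRβ chain pairs with the invariant pre-TCRα chain that Ptcra encodes, and this pre-TCR drives β-selection, after which the cells divide. Notch signaling from the thymic stroma maintains the stage, and Notch3, Dtx1 and Hes1 are textbook targets of it. Cells not yet selected are mostly out of cycle, which is what a zero of Mki67 and Top2a asks for. The zero of Cpa3 leaves out DN2-like cells, that of Trac leaves out cells with TCRα transcripts, and Apoe is a lipoprotein gene best known from macrophages and stroma.

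All mice were C57BL/6, with an age given as week 6 in the labels, no genetic change and no treatment. Each library pooled 4 thymi after CD4+ and CD8+ cells had been depleted. The first run held total DN and TCRγδ+ thymocytes. The second held DN1 and DN2 thymocytes sorted as CD44+ and TCRγδ-, whereas the third mixed separate sorts of DN1 plus DN2 cells, of DN3 cells and of TCRγδ+ cells. Each sort gave 1 library, so no run has a replicate, and a difference between runs cannot be told apart from sort, mice, kit or Cell Ranger version.

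The deposited counts summed to 39947415, 52797915 and 98533329 UMIs in the first, the second and the third run, an order kept for all values that follow. The members' counts summed to 449051, 240190 and 2448954 UMIs, so that 3 UMIs, taken here as the detection floor of a run, correspond to 6.68, 12.5 and 1.23 CPM (UMIs on the usual counts-per-million scale of the summed set). The median member held 3292, 3921 and 6814 UMIs, against 6095, 4852 and 8713 in the other cells. Members thus were shallower than the rest in every run. Cell barcodes were shared by 72 cells of the first and second runs and by 3 of the first and the third, and 0 were shared by the second and the third. The second run was sorted for CD44+ cells, a gate that should leave out DN3. The paper used Rag1, Notch3 and Ptcra, among other genes, to tell DN2b from DN2a cells within this run. Its 57 members could thus include DN2b cells, and which of them are DN2b or DN3 was not tested. Cd44 transcript was detected in 1 of them, which is RNA and not the protein used for the sort.

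The gate genes chose the cells, and their levels are given as a description. Ptcra stood at 771, 662 and 440 CPM in the members, Rag1 at 412, 416 and 600 CPM, and Notch3 at 321, 283 and 254 CPM. Ptcra was highest in the first run and lowest in the third, whereas Rag1 was highest in the third. Many members rested on few molecules. Notch3 was present as exactly 1 UMI in 84, 48 and 180 members, and all 3 genes were at exactly 1 UMI in 15, 9 and 11 members. Just outside the gate, 273, 178 and 183 cells failed on Notch3 alone, 98, 76 and 54 on Rag1 alone, and 19, 9 and 49 on Ptcra alone. Il2ra encodes CD25, a surface marker that DN2 and DN3 cells share, and was not part of the rule. It stood at 381, 520 and 662 CPM in the members and at 250, 463 and 648 CPM in the cells that lacked Notch3 only.

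The promoter of Ptcra is shown because the gene gives the gate its stage and is known to be regulated by E proteins and Notch, whose transcripts are described later. The window runs from 250 bases before to 50 after the start, on the minus strand of GRCm38.p6 at chr17:46763663-46763962, after RefSeq. Capitals mark the E-box CAGCTG and the RBPJ core TGGGAA, which were searched on both strands (the latter also as TTCCCA).
Ptcra: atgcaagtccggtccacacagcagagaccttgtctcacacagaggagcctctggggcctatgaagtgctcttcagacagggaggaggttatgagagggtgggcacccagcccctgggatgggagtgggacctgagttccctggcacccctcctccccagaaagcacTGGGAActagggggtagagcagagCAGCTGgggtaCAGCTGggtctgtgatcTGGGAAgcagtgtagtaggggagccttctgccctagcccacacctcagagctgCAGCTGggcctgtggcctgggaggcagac
It held CAGCTG 3 times and TGGGAA 2 times. Another E-box that was searched, CAGGTG or its reverse CACCTG, was found 0 times. The windows of Notch3 and Dtx1 held 0 of all these words, and that of Rag1 held 1 of each kind. Of 32851 RefSeq promoters of the same length, 16.3% held CAGCTG and 25.6% held TGGGAA or its reverse complement. These are matches of letters and not sites shown to be bound.

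The first comparison asked how the members differed from all other cells of the same run. They were higher in the DN3 markers that the gate did not use (8 of 8) and lower in S phase (24 of 25) and G2/M genes (23 of 24), and with any 1 run left out at least 7, 21 and 23 of these still passed. Of the genes of earlier progenitors 7 of 11 were lower, and of those that rise after β-selection 8 of 16, with 3 and 4 without the third run. Counts were summed per run over members and over other cells. With the run as a block, edgeR's quasi-likelihood test asked for an average difference over the 3 sorts, which need not recur in each. At a Benjamini-Hochberg adjusted p under 0.05, 2376 of 11507 genes passed (20.6%), of which 864 were higher in members (7.51%) and 1512 lower (13.1%), with a median log2 fold change of -0.01 over all genes. Without the third run, which holds most members, 771 genes passed, and without the first run 3385.

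The gate genes were not tested. Many other genes move with the stage that the gate selects, so the comparison describes the cells the gate took and is no independent sign that they form a type. A lower sum may come from fewer cells with the transcript or from fewer molecules in each, which cannot be told apart in sums.

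All 8 DN3 markers that the gate did not use were higher in members, with a median log2 fold change of 1.36, and 7 of 8 passed without the third run. Notch1, the receptor that acts before Notch3 (GRCm38, chr2:26457903-26516663, minus strand), stood at 392, 287 and 568 CPM in the members and at 149, 97.7 and 203 CPM in the other cells. Every member value lay above every value of the others. The log2 fold change was 1.39 ± 0.15 (SE from the edgeR fit of 3 runs, edgeR adjusted p = 1.13e-14). Il2ra (chr2:11642807-11693193, plus strand) was at 381, 520.4 and 662 CPM against 125, 219 and 265 CPM, again without overlap (1.32 ± 0.14, edgeR adjusted p = 8.31e-15). Rag2, the partner of Rag1, was at 75.7, 66.6 and 49.0 CPM against 26.5, 19.9 and 13.1 CPM (1.68 ± 0.21). Dntt, the terminal transferase that adds bases at V(D)J joints, was at 1686, 1682 and 1390.4 CPM against 1011, 1242 and 855 CPM (0.55 ± 0.10). It was higher within each run and was the marker that did not pass without the third. Cd3e and Bcl11b, a CD3 chain and a factor of T lineage commitment, were higher by 0.79 ± 0.12 and 0.84 ± 0.12 on the log2 scale.

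**Figure D1:**
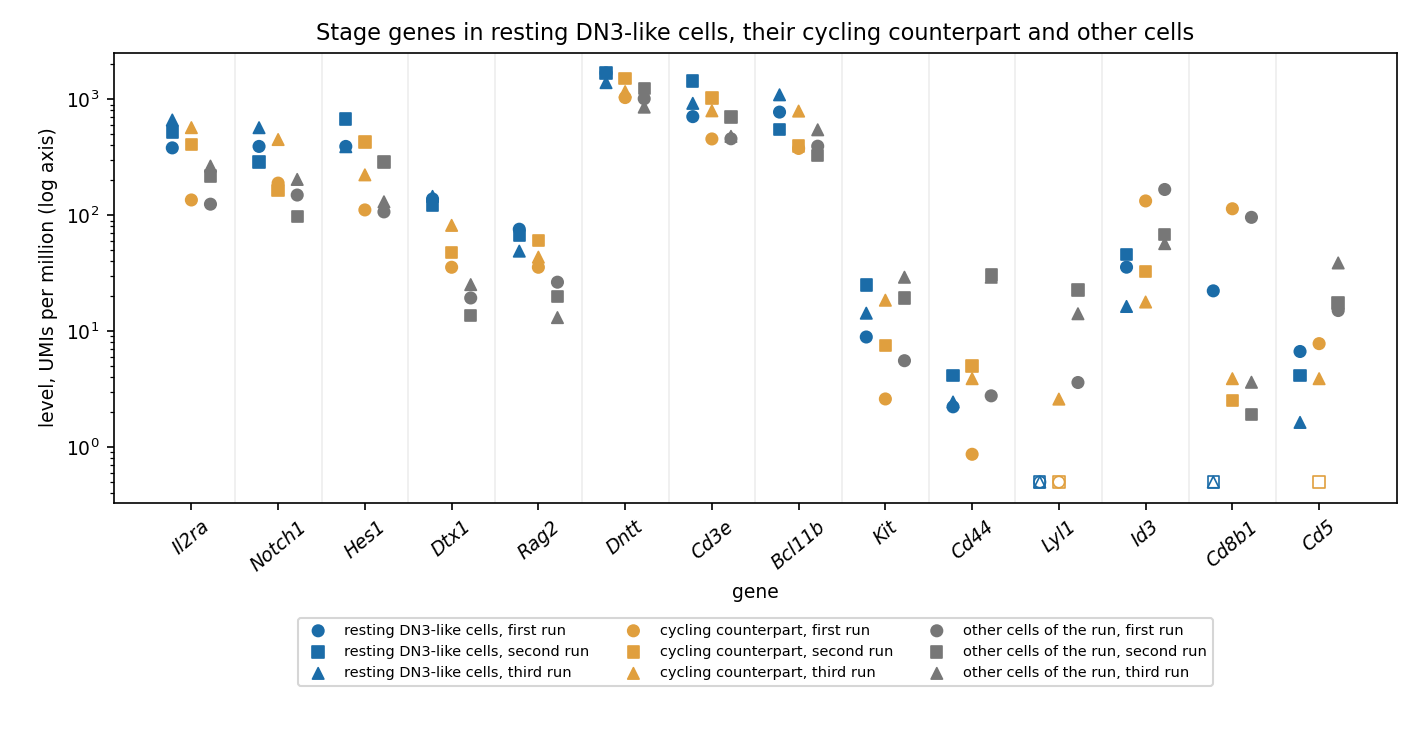
Level of 14 stage genes in CPM (log axis) in resting DN3-like cells (blue), the cells that differ from them only in having Mki67 or Top2a (orange) and all other cells of the run (grey), with 1 symbol for each run and open symbols at the foot for sums of 0 UMIs. Il2ra, Notch1, Dtx1 and Rag2 lie above the other cells without overlap, and Lyl1 was at 0 in the members of all 3 runs.

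Of 17 genes of the Notch pathway tested, 4 were higher in members, 0 were lower and 13 did not pass, and the list's median was 0.10. Dtx1, a Deltex ubiquitin ligase (chr5:120680202-120711927, minus strand), had the largest log2 fold change of the list. It stood at 138, 121 and 145 CPM in the members and at 19.3, 13.6 and 25.2 CPM in the other cells. The groups were far apart, and the log2 fold change was 2.69 ± 0.19 (edgeR adjusted p = 1.03e-25). Hes1, a transcriptional repressor, was at 392, 674 and 389.6 CPM against 107, 288 and 131 CPM (1.48 ± 0.14), without overlap. Maml3, a co-activator, was higher by 0.68 ± 0.24 on the log2 scale (edgeR adjusted p = 0.0267) and did not pass without the third run (0.99). Nrarp, another target, was at 4.45, 4.16 and 2.45 CPM in the members and 5.59, 12.5 and 6.28 CPM in the others and did not pass (-1.22 ± 0.53, edgeR adjusted p = 0.0875). Rbpj, the DNA-binding partner of Notch, had 28.9, 41.6 and 71.5 CPM against 20.3, 26.1 and 61.2 CPM and did not pass either (edgeR adjusted p = 0.360).

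Among 13 genes of V(D)J recombination, 5 were higher and 2 lower, with a median of 0.40. Besides Rag2 and Dntt, the higher genes belong to end joining. They were Xrcc6, which encodes Ku70 (0.74 ± 0.15), Lig4, which encodes DNA ligase IV (0.71 ± 0.23), and Dclre1c, which encodes Artemis, the nuclease that opens hairpins (1.18 ± 0.33). None of these 3 passed without the third run, where Lig4 was at -0.04, and Rag2 then was the higher gene of the list. The 2 lower genes were Hmgb1 and Hmgb2, chromatin proteins that assist RAG cutting in vitro and that are known to be high in dividing cells. Hmgb2 stood at 566, 495 and 332 CPM in members against 2559.7, 2129 and 1361 CPM, and the groups did not overlap (-2.18 ± 0.11, edgeR adjusted p = 7.06e-39).

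The CD3 and TCRβ list had 3 genes higher and 1 lower of 6, with a median of 0.51, and the same counts without the third run. Cd3d was at 1726, 1607 and 1939.6 CPM in members against 611, 529.7 and 712 CPM (1.43 ± 0.11), without overlap. Cd3g was higher by 0.74 ± 0.09. Trbc1, a TCRβ constant segment, was lower in every run, at 1287, 1241 and 1129 CPM against 1653, 1676 and 1647 CPM (-0.53 ± 0.10, edgeR adjusted p = 7.83e-06). Trbc2 did not pass (-0.22 ± 0.09, edgeR adjusted p = 0.0834).

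Of 10 genes of proximal TCR signaling, 2 were higher and 4 lower, with a median of -0.19. Lck, the kinase that signals from the pre-TCR, was at 1630.1, 1332 and 939 CPM against 916, 713 and 424 CPM, higher without overlap (0.88 ± 0.11). The adaptor Lat was higher by 0.56 ± 0.12 and did not pass without the third run (0.42). Zap70, the kinase that follows Lck, was at 33.4, 8.33 and 14.7 CPM against 71.1, 74.1 and 58.3 CPM, and thus lower in every run (-1.88 ± 0.25, edgeR adjusted p = 2.03e-10). Cd2, an adhesion receptor, had 20.04, 0 and 3.68 CPM against 25.6, 48.8 and 56.9 CPM (-3.03 ± 0.35). The other lower genes, Fyn and Txk, were higher in members of the first run (26.7 CPM each, against 22.1 and 9.02 CPM), and without the third run Txk was at 0.07.

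Among transcription factors of the T lineage, 6 of 17 were higher and 6 lower, with a median of 0.25. Without the third run 3 were higher and 0 lower. The higher ones were Bcl11b, Runx1 (0.76 ± 0.16), Ets2 (1.35 ± 0.24), Myb (0.49 ± 0.14), Sox4 (0.59 ± 0.13) and Spib (1.48 ± 0.37). Ikzf3, which encodes Aiolos, was at 4.45, 0 and 1.63 CPM against 10.1, 21.9 and 44.1 CPM (-4.25 ± 0.46). Gata3 was at 89.1, 125 and 78.8 CPM against 129, 159.7 and 122 CPM (-0.60 ± 0.18, edgeR adjusted p = 0.00662), and Runx3 changed by -1.30 ± 0.23. The lower calls of Ikzf3, Gata3 and Runx3 were lost without the third run (-2.40, -0.57 and -0.68). Tcf7, which encodes TCF-1, did not pass (-0.27 ± 0.14, edgeR adjusted p = 0.162).

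Of 6 genes of E proteins and their Id inhibitors, Tcf12 and Tcf4 were higher and Id2 and Id3 lower. Tcf12, which encodes HEB, was at 185, 196 and 417 CPM against 135, 119 and 217 CPM (0.65 ± 0.16, edgeR adjusted p = 0.000654) and did not pass without the third run (0.45). Id3, which is induced by TCR signals and inhibits E proteins, was at 35.6, 45.8 and 16.3 CPM against 167, 68.4 and 56.9 CPM (-1.78 ± 0.23). It was lower in every run, and its call held with each run left out. Tcf3, which encodes E2A, did not pass (-0.16 ± 0.17, edgeR adjusted p = 0.566).

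Of 15 surface genes of the stage, 5 were higher and 6 lower, with a median of -0.11. Ly6d, a small surface protein of early lymphoid cells, was at 2361, 2331 and 1757 CPM against 1079, 1081 and 859 CPM, without overlap (1.01 ± 0.10). Cd24a, Ccr9, Cd27 and Il2ra were also higher, whereas Cd28, Cd44, Cd5, Cd53, Il7r and Itgae were lower. Il7r, the receptor chain for IL-7, was at 57.9, 37.5 and 150.3 CPM against 34.5, 140.1 and 329 CPM, higher in the first run and lower in the others (-0.87 ± 0.21). Its call was lost without the second run (-0.55) or the third (-0.51). The list had 3 genes higher and 1 lower (Cd53, -0.89) without the third run, and 2 higher and 5 lower without the second.

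Of 11 progenitor genes tested, 7 were lower and 1 higher, with a median of -2.10. Without the third run 3 were lower, with DESeq2 2, and against other cells with Ptcra 1 of 8 was lower and 1 higher (median -0.41). Lyl1, a factor of early progenitors, had 0 UMIs in all 511 members against 2405 in the other cells. With 3 UMIs per run as the floor, it was at least 1.82-fold lower in the second run and at least 11.5-fold lower in the third, and the first run gave no bound. Cd44, the adhesion receptor that is lost between DN2 and DN3, had 2.23, 4.16 and 2.45 CPM in the members and 2.77, 30.4 and 29.2 CPM in the others. The first-run values were close together, and the log2 fold change was -3.29 ± 0.45 (edgeR adjusted p = 7.98e-10), a call lost without the third run (-2.15). Kit, the receptor of the earliest stages, was at 8.91, 24.98 and 14.3 CPM against 5.56, 19.4 and 29.2 CPM and did not pass (edgeR adjusted p = 0.140). Mycn was the gene of the list that was higher (0.82 ± 0.30, edgeR adjusted p = 0.0397), and it did not pass with any run left out.

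Of 16 genes that rise after β-selection, 8 were lower and 2 higher, with a median of -1.23, and without the third run 4 were lower. Cd5, whose surface level follows TCR signal strength, was at 6.68, 4.16 and 1.63 CPM against 15.1, 17.5 and 38.8 CPM, lower in each run and without overlap (-3.64 ± 0.44, and -1.59, not passing, without the third run). Nr4a1, an immediate target of TCR signals, had 0 UMIs in the members of the first and second runs and 9.80 CPM in the third, against 8.46, 14.8 and 30.8 CPM in the other cells (-1.89 ± 0.36). Cd8b1 was at 22.3 CPM in the first-run members, against 95.8 CPM, and at 0 in the other runs. The higher genes were Cd27, at 359, 308 and 204 CPM against 223, 209 and 162 CPM (0.44 ± 0.15, edgeR adjusted p = 0.0220), and Myc (0.48 ± 0.18, edgeR adjusted p = 0.0419). Both calls were lost without the second or the third run, and Myc was lower than in the other cells in the first run, at 131 CPM against 154 CPM.

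In members, 24 of 25 S phase genes and 23 of 24 G2/M genes were lower, with medians of -1.56 and -3.34. Without the third run 21 and 23 still were. This follows in part from the choice of cells, since the gate asked for 0 UMIs of Mki67 and Top2a. Pcna, the replication clamp, was at 100.2, 79.1 and 61.3 CPM against 385, 235 and 205 CPM (-1.85 ± 0.17). Cdk1, the kinase of mitotic entry, was at 24.5, 8.33 and 3.68 CPM against 152, 102 and 51.3 CPM (-3.36 ± 0.28). Both were lower in members without overlap. Cell cycle transcripts were not absent. The highest count in a member was 94, 60 and 39 S phase UMIs, against medians of 5, 5 and 8. For G2/M genes it was 55, 12 and 17 UMIs, against medians of 2, 2 and 4. The name resting thus refers to the zeros of the gate and may not hold for each cell. With each cell thinned to 2000 UMIs, 94.6%, 78.9% and 90.4% of the members still held a UMI of an S phase gene, but 28.8%, 19.3% and 15.5% held 5 or more, against 70.1%, 39.7% and 31.0% of the other cells. Uhrf1, which recruits the maintenance DNA methyltransferase, was the S phase gene that was higher, at 220.5, 221 and 279.7 CPM against 209, 124 and 159 CPM (0.50 ± 0.16, edgeR adjusted p = 0.0131), a call lost without the second (0.40) or the third run (0.30). Smc4, a condensin subunit, did not pass (-0.16 ± 0.13, edgeR adjusted p = 0.460).

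Among inhibitors and G1 cyclins, 4 of 14 were higher and 5 lower, with a median of -0.20. The median turned to 0.52 without the third run, with 5 higher and 4 lower. Cdkn1a, which encodes the inhibitor p21, was at 118, 99.9 and 145 CPM against 23.4, 37.8 and 40.1 CPM and did not overlap (1.83 ± 0.19, edgeR adjusted p = 2.47e-15). Ccnd2 and Cdk6 were higher by 0.59 ± 0.14 and 0.78 ± 0.12, and the call of Ccnd2 was lost without the first run (0.25). Ccnd3, the D cyclin that the pre-TCR is known to need for expansion, was at 214, 142 and 131 CPM against 414, 327 and 220.4 CPM (-1.01 ± 0.15), lower without overlap.

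Of 15 genes of glycolysis and glucose uptake, 10 were lower and 0 higher, with a median of -0.63, and 6 were lower without the third run. Ldha, lactate dehydrogenase, was at 572, 349.7 and 202 CPM against 1252, 633 and 383 CPM (-1.05 ± 0.13). It was lower in every run. Of 12 survival genes, Bcl2l11 was higher and Bcl2a1b and Bcl2a1d were lower (median -0.04). Bcl2l11 did not pass without the third run (0.42), and Bcl2 did not pass (-0.02 ± 0.16, edgeR adjusted p = 0.962). Of 10 interferon response genes, Bst2 and Rsad2 were higher and Ifi27l2a lower (median 0.09), but without the first run 1 was higher and 5 lower, and without the third 4 were higher and 1 lower. Of 9 immediate early and stress genes, Jun was higher and Dusp1 and Ier2 lower (median 0.07), and the call of Jun was lost without the first run (0.19) and those of Dusp1 (-0.55) and Ier2 (-0.51) without the third.

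**Figure D2:**
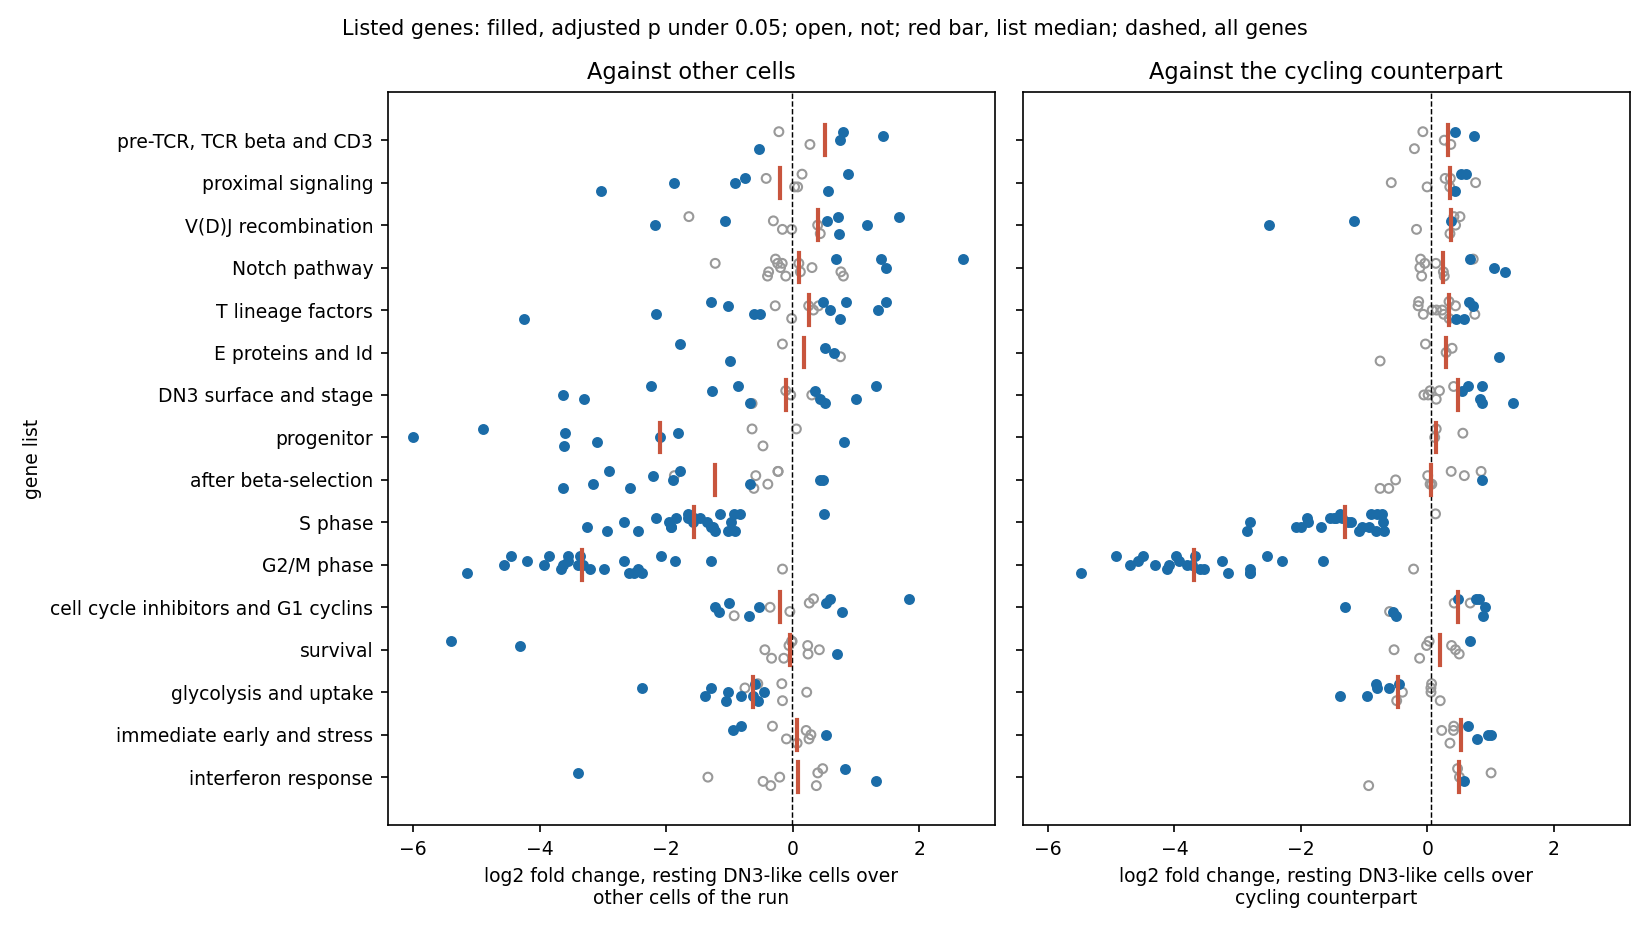
Log2 fold change of each tested gene of 16 lists, resting DN3-like cells over the other cells of the run (left) or over the cycling counterpart (right), with filled points for adjusted p under 0.05, red bars for list medians, a dashed line for the median of all genes, and Lyl1 drawn at the left edge. S and G2/M genes lie far to the left in both panels, with medians of -1.56 and -3.34 against other cells.

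The 10 largest increases were in H19, Slc5a9, Dtx1, Pld4, Bst1, Hdac4, Khdc1a, Tshz2, Rab44 and Arl5c, with log2 fold changes from 1.99 to 3.16. H19, an imprinted long noncoding RNA (GRCm38, chr7:142575529-142578143, minus strand), was at 165, 112 and 253 CPM in members against 16.8, 7.52 and 34.1 CPM. The groups were far apart in every run (3.16 ± 0.19, edgeR adjusted p = 1.24e-30). Slc5a9, a sodium-dependent sugar transporter gene (chr4:111875375-111902918, minus strand), was at 84.6, 83.3 and 131 CPM against 16.8, 3.97 and 14.9 CPM (3.03 ± 0.22). Hdac4, a class IIa histone deacetylase gene (chr1:91928779-92195699, minus strand), was at 276, 266 and 443 CPM against 56.8, 46.0 and 101 CPM (2.22 ± 0.16). Both were higher in the members without overlap. Pld4, a nuclease gene of endolysosomes (chr12:112760655-112768990, plus strand), was at 272, 287 and 149 CPM against 34.5, 35.5 and 34.1 CPM (2.58 ± 0.17). Bst1, which encodes the ADP-ribosyl cyclase CD157 (chr5:43818885-43843986, plus strand), was at 93.5, 149.9 and 119.6 CPM against 15.1, 22.6 and 21.3 CPM (2.52 ± 0.19).

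The 10 largest decreases were in mitotic genes and in genes of immune cells. Aurkb, Nusap1, Spc25, Plk1 and Ube2c serve chromosome segregation, and Aurkb was at 0, 8.33 and 0.817 CPM against 107, 70.8 and 29.8 CPM (-5.16 ± 0.42). Igkc, the immunoglobulin κ constant segment (chr6:70726435-70726966, plus strand), was at 0, 91.6 and 42.5 CPM against 2.72, 1926 and 1086 CPM (-4.61 ± 0.19). The second-run value rests on 22 UMIs. Jchain, Cd74, Ccl5 and Gimap4 completed the set. In the first run Igkc, Jchain and Gimap4 lay below the floor of 6.68 CPM in the other cells too. The members' 0 there thus shows no decrease. Among other cells limited to those with Ptcra, Jchain was higher in members instead (0.48) and Igkc did not pass (-0.59).

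Markers of other cell types were counted over their whole lists, and their part in the differences was not tested. The B cell list summed to 80.2, 83.3 and 90.2 CPM in the members and to 30.1, 40.1 and 273 CPM in the others. Nearly all of it in the members was Cd79b, at 77.9, 83.3 and 82.5 CPM, while the defining Cd79a was at 0 in the first and second runs and at 3.27 CPM in the third. Of the 4 genes tested 3 were lower, and 0 were lower without the third run, where Ebf1 turned to 1.76. The NK and innate-like list summed to 234, 221 and 120 CPM in members against 114, 1045 and 652 CPM, with 7 of 8 lower. Without the third run 4 were lower, with DESeq2 2, and against other cells with Ptcra 1 of 7. Nkg7 made up most of it in the members, at 187, 196 and 107 CPM against 98.2, 493 and 345 CPM. The erythroid list was at 0, 8.33 and 4.08 CPM in members, with 2 of 3 tested lower. The myeloid and dendritic list summed to 232, 175 and 175 CPM against 149, 289 and 360 CPM, with 2 of 4 lower and 0 of them without the third run. C1qa and C1qb were at 0 in all members and, in the other cells, below a floor of 3 UMIs over all members.

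Of the plasmacytoid dendritic list, Ccr9 and Bst2 were higher (0.52 ± 0.17 and 0.82 ± 0.14) and Irf8 lower (0.01 without the third run). The defining Siglech and Klk1 were at 0 in all members, but the other cells also lay below that floor, so these zeros say little. Of the stromal and epithelial list, Epcam, an epithelial adhesion molecule, stood at 118, 70.8 and 158 CPM in members against 38.5, 33.0 and 41.4 CPM, without overlap (1.60 ± 0.19, edgeR adjusted p = 2.91e-12). Krt5, Krt8, Col1a1, Col1a2 and Psmb11 were at 0 in all members, but lay below that floor in the other cells too, and Krt18 was at 0 in the first and second runs. Of 7 DN1 and DN2a markers 5 were lower, 1 of them without the third run, and of 3 DN2 markers Il2ra and Mycn were higher and Kit did not pass.

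Transcripts of TCRβ, TCRγ and TCRδ segments were found in the same members. Trbc1 or Trbc2 was detected in 109 of 111, 57 of 57 and 340 of 343 members, and Tcrg-C1, Tcrg-C2 or Tcrg-C4 in 110, 57 and 331. Trdc, the TCRδ constant segment, was detected in 54, 30 and 198 members, or 48.6%, 52.6% and 57.7%, and 54, 30 and 196 members held Trbc together with Trdc. Most had few Trdc molecules, since 4, 3 and 18 members held 5 or more UMIs. Summed, Trdc stood at 301, 412 and 182 CPM in the members and at 435, 572 and 407 CPM in the other cells, and was lower in each run (-0.83 ± 0.14, edgeR adjusted p = 4.58e-07).

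Tcrg-C2 was higher (0.37 ± 0.11, edgeR adjusted p = 0.0100), although it did not pass with any 1 run left out, and Tcrg-C1 did not pass (edgeR adjusted p = 0.599). Constant segments of a family are near copies, and how reads were split between Trbc1 and Trbc2 or among the Tcrg segments is uncertain. Sox13, Blk, Etv5 and Maf, which mark γδ thymocytes, were each lower in members, by log2 fold changes from -1.68 to -3.27. Without the third run, 3 of 9 γδ markers were lower, in place of 6.

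Detection was then compared at equal depth, with each cell thinned to 2000 UMIs. Il2ra was detected in 53.2%, 59.6% and 64.7% of the members (73.0%, 71.9% and 91.8% with all UMIs), against 26.1%, 26.4% and 30.6% of the other cells. Notch1 was detected in 56.8%, 35.1% and 66.5% of the members (76.6%, 61.4% and 96.8% with all UMIs), against 27.1%, 15.4% and 29.9%. Both shares were higher in the members in every run. The same shares were taken in B cells of the third run, which should lack these transcripts. Of 401 cells with at least 2 UMIs of Cd79a and 2 of Cd79b, with a median depth of 5051 UMIs against 6814 in the members, 398 reached 2000 UMIs. In these Il2ra was found in 10.6%, Notch1 in 8.29% and Cd3e in 7.54% at 2000 UMIs. High Scrublet scores were found in 17.0% of the 401 cells, and whether free RNA or doublets gave these UMIs was not tested.

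Kit was found in 0.901%, 7.02% and 2.92% of the members, against 1.01% of these B cells. Cd44 was found in 0.901%, 0% and 0.292%, against 9.80% of the B cells, which also express it, and in the second run 0 of 57 members still allows 6.27% by the exact interval. No member of the third run lacked Il2ra, Rag2 and Notch1 together, whereas 9 of 111 and 5 of 57 members of the first and second runs did, at lower depth.

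**Figure D3:**
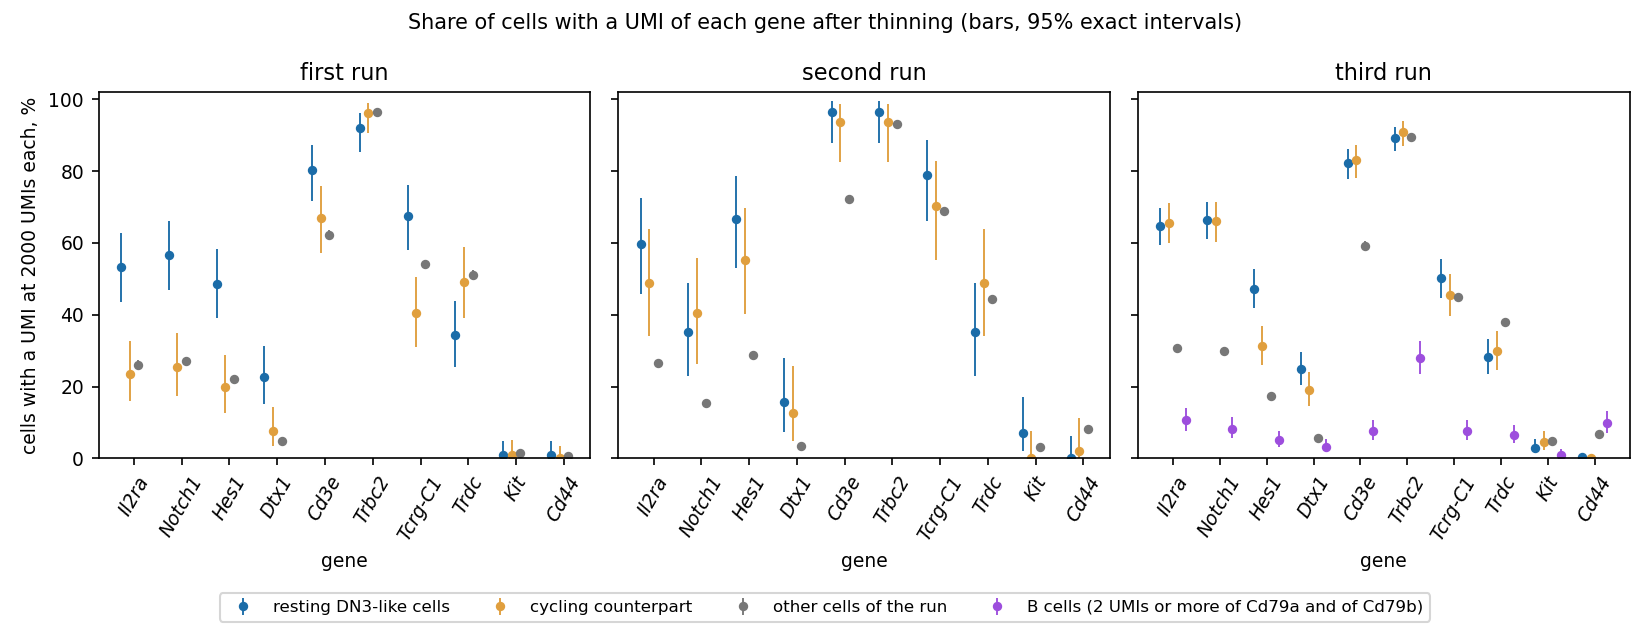
Share of cells with a UMI of each gene, in percent, after each cell was thinned to 2000 UMIs, by run, with 95% exact intervals for resting DN3-like cells (blue), cycling counterparts (orange), other cells (grey) and, in the third run, B cells (purple). Il2ra was found in 53.2% to 64.7% of the resting cells, above the other cells in every run, and Cd44 in under 1%.

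The second comparison asked what sets these cells apart from cells of the same gate that hold Mki67 or Top2a. The cycling counterpart comprised the 106, 47 and 288 cells that met every other condition and held at least 1 UMI of Mki67 or Top2a. Of these, 81, 31 and 134 held at least 2 such UMIs, so the others rest on a single molecule. The resting cells were lower in S and G2/M genes and higher in Dtx1, Hes1, Notch1, Cd3d, Cd3e, Btg1 and Btg2. Of 7166 genes tested, 831 passed (11.6%), with 293 higher in the resting cells (4.09%) and 538 lower (7.51%), and the median was 0.06. With at least 2 UMIs asked of the counterpart, 1762 genes passed. With DESeq2, 17.2% of the calls were higher against 35.3% with edgeR. The counterpart was deeper, with medians of 10515.5, 8491 and 8050.5 UMIs against 3292, 3921 and 6814. At 1 UMI a gate can take a deeper cell at a lower level, and the gate genes were lower in the counterpart in every run. Ptcra was at 256, 525 and 337 CPM against 771, 662 and 440 CPM. Rag1 was at 157, 219 and 424 CPM against 412, 416 and 600 CPM. Notch3 was at 113, 158 and 170 CPM against 321, 283 and 254 CPM. How far this shaped the higher DN3 and Notch genes was not tested. Cells with a Scrublet score among the highest 8% of their run made up 24.5%, 4.26% and 7.64% of the counterpart and 3.60%, 1.75% and 0.875% of the resting cells, and without them 960 genes passed.

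The S and G2/M lists were lower with 23 of 24 genes each (medians -1.30 and -3.69), which follows in part from the choice of cells. The largest decreases, Aurkb, Fam64a, Hmmr, Nusap1, Ckap2l and Ube2c, all serve mitosis, with log2 fold changes from -5.47 to -4.49. The G2/M list summed to 860, 716 and 625 CPM in the resting cells, against 4253, 6409 and 2766 CPM in the counterpart. Uhrf1 did not pass (0.13 ± 0.14, edgeR adjusted p = 0.623).

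The 6 largest increases were Ccr9, Dtx1, Pik3ip1, Ypel3, Id2 and Hdac4. Ccr9, the receptor for the thymic chemokine CCL25, was at 143, 149.9 and 205 CPM in the resting cells and at 52.9, 22.6 and 100.2 CPM in the counterpart, without overlap (1.36 ± 0.20, edgeR adjusted p = 2.72e-05). Pik3ip1, an inhibitor of PI3 kinase (GRCm38, chr11:3330401-3342971, plus strand), was at 289, 246 and 249 CPM against 73.8, 123 and 146 CPM (1.19 ± 0.18). Dtx1 was at 138, 121 and 145 CPM against 35.6, 47.7 and 81.7 CPM (1.22 ± 0.20). These genes were higher in the resting cells in every run, without overlap. Hes1 was at 392, 674 and 389.6 CPM against 111, 429.6 and 223 CPM (1.06 ± 0.16), and its second-run counterpart value lay above the resting cells of the first and the third run. Notch1 was higher as well (0.68 ± 0.15, edgeR adjusted p = 0.00313), so that 3 of 11 Notch genes passed, all higher (median 0.25), and the 3 passed with each run left out. Thinned to 2000 UMIs, Hes1 was detected in 48.6%, 66.7% and 47.2% of the resting cells against 19.8%, 55.3% and 31.2% of the counterpart, higher in every run. Notch1 was detected in 56.8%, 35.1% and 66.5% against 25.5%, 40.4% and 66.0%, so that at equal depth its share was higher in the first run, lower in the second and close in the third.

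Of 6 CD3 and TCRβ genes, Cd3d and Cd3e were higher (0.74 ± 0.13 and 0.43 ± 0.13), while Trbc1 and Trbc2 did not pass (-0.20 ± 0.12 and -0.07 ± 0.13). The Cd3e call was lost without the first (0.31) or second run (0.37). Of 12 DN3 surface genes 6 were higher, namely Il2ra (0.64 ± 0.17), Ly6d (0.83 ± 0.14), Cd27 (0.86 ± 0.15), Cd53, Il2rg and Ccr9, and 0 were lower. Il2ra was at 381, 520.4 and 662 CPM against 135, 407 and 569 CPM, and without the first run, where the gap was widest, it did not pass (0.25). Rag2 did not pass (0.42 ± 0.21, edgeR adjusted p = 0.205). Of 11 inhibitors and G1 cyclins, 5 were higher and 3 lower (median 0.49). Btg1 and Btg2, both antiproliferative genes, were higher by 0.88 ± 0.17 and 0.77 ± 0.16, as were Cdkn1a (0.82 ± 0.19), Ccnd2 (0.91 ± 0.16) and Cdk6, and the lower ones were Ccnd3, Cdk4 and the inhibitor gene Cdkn2c (-1.31 ± 0.30). The call of Ccnd3 was lost without the first (-0.39) or the second run (-0.59).

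Of 15 T lineage factors, Bcl11b, Runx1, Myb and Sox4 were higher and 0 were lower (median 0.34). Without the first run, without the second or with DESeq2, 2 were higher, and without the third 5 of 12 were. Bcl2, a survival gene, was at 209, 208 and 187 CPM in the resting cells and at 85.0, 100.5 and 172 CPM in the counterpart, higher without overlap (0.67 ± 0.19, edgeR adjusted p = 0.0184), and its call was lost without the first (0.31) or second run (0.56). Of 12 glycolysis genes, 6 were lower, with Ldha at -0.80 ± 0.14 and Gapdh at -0.61 ± 0.13, and 0 were higher (median -0.46). Of 8 immediate early and stress genes, Jun, Junb, Fos and Hspa1a were higher and 0 were lower (median 0.53), but without the second run 1 passed.

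Trdc did not pass (-0.01 ± 0.15, edgeR adjusted p = 0.975), with 301, 412 and 182 CPM against 331, 324 and 201 CPM. Tcrg-C1, Tcrg-C2 and Tcrg-C4 were higher by 0.64 ± 0.15, 0.71 ± 0.16 and 0.62 ± 0.15, and without the first run none of them passed (0.32, 0.36 and 0.37). The B cell marker Cd79b was higher too (0.68 ± 0.21), a call lost without the first (0.38) or the second run (0.60).

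The gate also left out cells with Apoe or with Cpa3. These counterparts had 18, 3 and 94 cells for Apoe and 7, 8 and 43 cells for Cpa3, so that only the third run held the 20 cells set as the minimum. They are described there without a test. Of 3192 genes compared with the Apoe counterpart at 50 CPM or more, 2 differed by 2-fold or more (0.0627%), Hivep2 and the uncharacterized Gm17590. Hivep2, a zinc finger factor gene (GRCm38, chr10:13966075-14151374, plus strand), was at 50.6 CPM in the resting cells and at 24.2 CPM in the counterpart (log2 ratio 1.06, 95% exact interval 0.36 to 1.84). Rag2 was at 49.0 CPM against 24.2 CPM (1.02, 0.31 to 1.80), just under the 50 CPM of the rule, and Jun at 589 against 369 CPM (0.68, 0.49 to 0.86). Il2ra, at 662 against 678 CPM (-0.03, -0.18 to 0.11), and Notch1, at 568 against 543 CPM (0.07, -0.09 to 0.23), differed by less than their counting error.

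The Cpa3 counterpart differed at 42 of 3332 genes (1.26%), 10 higher and 32 lower in the resting cells. The largest differences were in B cell and antigen presentation genes. H2-Aa was at 1.63 CPM in the resting cells and 59.6 CPM in the counterpart (-5.19, -7.18 to -3.64), Cd79a at 3.27 against 57.0 CPM and Igkc at 42.5 against 287 CPM. These rest on 23, 22 and 111 UMIs in 43 cells, of which 7 had a Scrublet score among the highest 8%. Of T lineage genes, Gata3 was at 78.8 against 140 CPM (-0.83, -1.27 to -0.36), and Sox13 at 13.9 against 59.6 CPM (-2.10, -2.91 to -1.27). Trdc was at 182 against 303 CPM (-0.74, -1.03 to -0.43) and Trbc1 at 1129 against 1624 CPM (-0.52, -0.65 to -0.40), so both were lower in the resting cells.

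The members were last set side by side across the runs. By a rule of size (at least 100 CPM and 4-fold above or below both other runs), 68 genes stood apart in 1 run, of which 52 were higher and 8 lower in the third. Gene annotation, kit and sort cannot be told apart there. Nme2, for example, was at 17.8 and 20.8 CPM in the members of the first and second runs and at 563 CPM in the third, with 921 CPM in the third run's other cells. Xist, which silences 1 X chromosome in females, was at 2278, 0 and 2541 CPM, and Tsix followed it. In the other cells Xist was at 1443, 0.0573 and 1668 CPM. A difference in the sex of the pooled mice thus cannot be told apart from the run either. Fos and Junb were low in the first run (17.8 and 80.2 CPM against 487 and 629 CPM in the second), as they were in its other cells (10.1 and 45.5 CPM). Hspa1a, a heat shock gene, was at 28.9, 766 and 8.58 CPM in the members and at 574 CPM in the other cells of the second run. The other cells thus moved in the same direction for these genes.

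For a few genes the difference from the other cells turned with the run. Of 263 genes compared run by run, 23 had 95% exact intervals on opposite sides of 0 in different runs, and 11 of these also differed by 2-fold or more both ways. All 11 were higher in members of the first run and lower in another. Id2, an inhibitor of E proteins that is high in innate-like cells, was at 71.3, 62.5 and 65.3 CPM in the members and at 12.1, 377 and 191 CPM in the other cells. Its level in the members was thus similar in the 3 runs, while that of the other cells ranged widely. Its call was lost without the second (-0.14) or the third run (-0.20). A single first-run member of 8012 UMIs held all 103 Gzmc, all 8 Xcl1 and all 3 Ncr1 UMIs of the first-run members, 13 of their 15 Fcer1g and 11 of their 32 Id2 UMIs. Without that cell the first-run log2 ratio of Id2 went from 2.55 to 1.97 and that of Fcer1g from 2.51 to -0.37. The differences between runs were not tested.

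**Figure D4:**
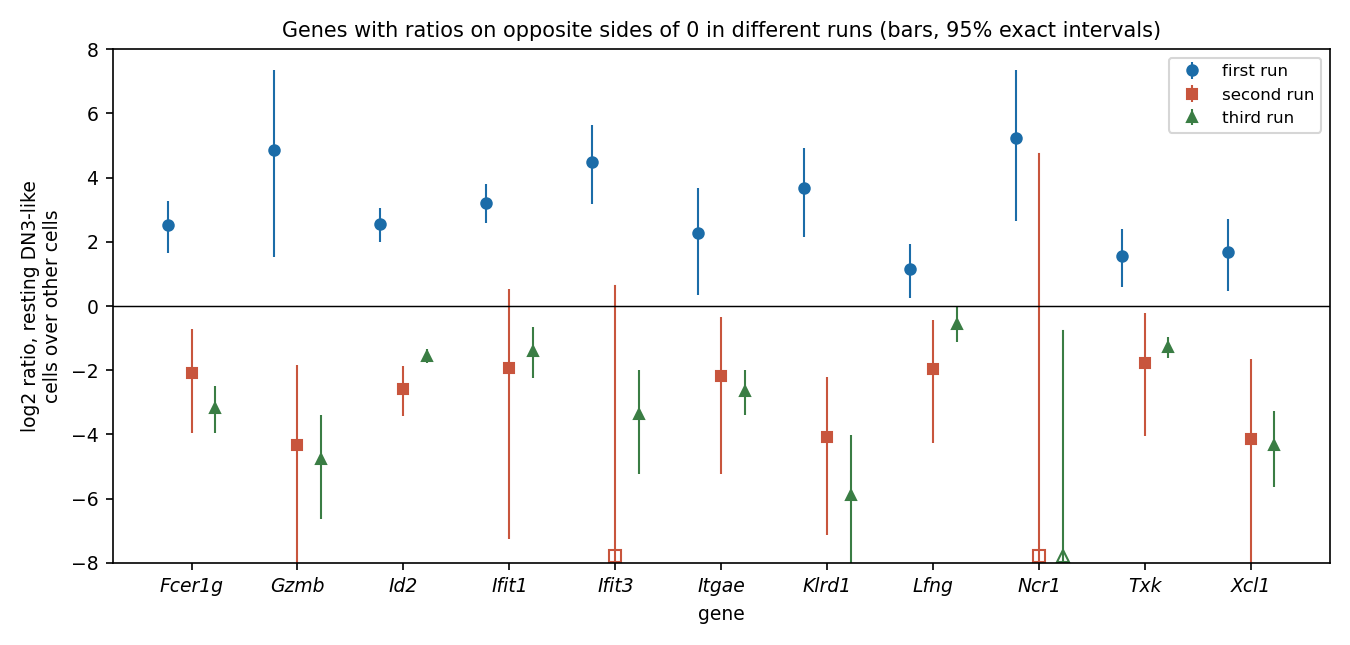
Log2 ratio of members over other cells in each run for the 11 genes whose ratios lie on opposite sides of 0, with 95% exact intervals as bars and open symbols at the foot where the members held no UMI. First-run ratios (circles) range from 1.16 for Lfng to 5.23 for Ncr1, and the ratios of the other runs that could be computed lie below 0.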

How the data were processed

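The authors deposited 3 filtered matrices of UMI counts per gene and cell, made from 10x 3' libraries with Cell Ranger and mm10, unnormalized and with 1 matrix per sort. The third file's header names Cell Ranger 4.0.0, and which version and kit made the other runs is not given in the sources used here. The submitters' processing notes also name R 3.6.3 and Seurat 2.3, whose output is not used here. No column of the files was left unused (0), and the comparison used the 27734 gene identifiers that the runs share.

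Cells were kept with 500 to 5000 genes and at most 7% mitochondrial UMIs, and members were taken by the gate given above. Doublets were kept, and an alternative removed the 8% of cells with the highest Scrublet scores in each run (scanpy 1.11.5, Python 3.11.15). Raw counts were summed per run over members and over all other cells or the cycling counterpart, which share the members. They were tested with edgeR 4.0.16 (R 4.3.3, limma 3.58.1), with TMM scaling, filterByExpr, the run as a block and the quasi-likelihood F test, two-sided. p-values were adjusted after Benjamini and Hochberg over all genes tested, with a threshold of 0.05, and the 8 gate genes were not tested. Members and other cells of a run come from the same library, so the run pairs them. The variance behind each p-value was drawn toward a trend shared by all genes. With 3 runs of different sorts, a p-value is thus no measure of that gene's spread between runs alone. Residual degrees of freedom were 2, with prior degrees of freedom of 132 and 22.2.

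CPM are counts scaled to the summed UMIs of a set. Log2 fold changes are given with an SE, taken as the absolute log2 fold change over the square root of the test's F value. It rests on the variance drawn toward the trend, and not on the spread of the runs alone. Intervals of shares and ratios are exact at 95% (scipy 1.17.1). For detection at equal depth, each cell was thinned to 2000 UMIs. Coordinates are GRCm38 (from the annotation given with it), and promoters are from RefSeq. Genes of the lists were named throughout, with the 10 (other cells) or 6 (counterparts) largest changes each way among called genes that reached a mean of 50 CPM and moved the same way in every run. Members, lists and tests were chosen with earlier results of these data known. The tests were checked on simulated counts. Alternatives were DESeq2 1.42.0, RLE size factors, no filter, no block, each run left out, doublets removed, a mitochondrial limit of 5%, at least 2 UMIs of Ptcra and a gate on thinned cells. Another 3, namely other cells limited to those with Ptcra, S and G2/M genes left out, and a counterpart with at least 2 UMIs, were chosen after seeing the data.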

Additional observations from a re-analysis of the deposited data

Results flagged for a closer look

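In 11 genes the log2 ratio of members over other cells lay above 0 in the first run and below 0 in another, with exact intervals on opposite sides. The difference between runs was not tested, since each sort has 1 library.

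Itgae, an integrin of tissue-resident and innate-like T cells, was at 2.26, -2.19 and -2.65 in the first, the second and the third run. Id2 was at 2.55, -2.59 and -1.55, and Txk, a Tec family kinase, at 1.57, -1.78 and -1.28. Lfng, which modifies Notch receptors, was at 1.16, -1.97 and -0.55.

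The NK and innate-like genes rest on few molecules in the first run. Gzmb was at 4.87, -4.32 and -4.76, with 2 UMIs in the first-run members. Klrd1 was at 3.68, -4.07 and -5.87, Xcl1 at 1.70, -4.13 and -4.32, and Fcer1g at 2.51, -2.07 and -3.18. Ncr1 was at 5.23 in the first run and had 0 UMIs in the members of the others. A single cell of 8012 UMIs and 2570 genes held 5 of the 6 Klrd1, 8 of the 8 Xcl1, 13 of the 15 Fcer1g and 3 of the 3 Ncr1 UMIs of the first-run members. It met the gate with 2 UMIs of Ptcra, 1 of Rag1 and 1 of Notch3, and the removal of high Scrublet scores kept it. Without it the first-run ratio of Klrd1 was 1.12 and that of Fcer1g -0.37, while Gzmb (4.89), Itgae (1.87), Txk (1.47) and Lfng (1.07) stayed above 0.

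The interferon-induced genes Ifit1 and Ifit3 were at 3.22 and 4.50 in the first run and at -1.39 and -3.36 in the third, and the second-run members held 1 UMI of Ifit1 and 0 of Ifit3. They rest on 27 and 8 UMIs in the first run, none of them from the cell above.

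Outside the quality limits, 5 cells of the third run met the conditions of the gate and were not counted as members. They held 1324, 8624, 7218, 1921 and 6399 UMIs.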

How the results depend on the processing

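In the comparison with other cells (2376 calls), DESeq2 called 1124 genes, the gate on thinned cells 1544, and the fits with 1 run left out 771 (without the third) to 3385 (without the first). Without the run as a block, edgeR called 0 genes, with 1259 at an unadjusted p under 0.05. In the comparison with the cycling counterpart (831 calls), DESeq2 called 406, a counterpart with at least 2 UMIs of Mki67 or Top2a 1762, the fit without the replicate block 47, and the fits with 1 run left out 681 to 875. The other alternatives kept both counts within 1.5 times. Members numbered 88, 40 and 263 with at least 2 UMIs of Ptcra and 50, 23 and 106 by the gate on thinned cells, for which the cycling comparison could not be fitted. The Apoe and Cpa3 comparisons have no test, and their alternatives were not run.

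Of 174 listed or named genes called against other cells, DESeq2 kept 124 and lost 50, and without the third run 113 of 171 were kept, 52 lost and 6 reversed. With 1 run left out, log2 fold changes ranged from -4.42 to 1.76 for Ebf1, -3.06 to 0.23 for Fcer1g, -1.55 to 0.014 for Irf8, -0.038 to 1.06 for Lig4, -9.73 to 0.20 for Lmo2 and -1.37 to 0.075 for Txk. Against other cells with Ptcra, 126 of 165 were kept, 32 lost and 7 reversed, namely Dusp1 (0.15), Fcer1g (0.28), Id2 (0.62), Il7r (0.059), Jchain (0.48), Nkg7 (0.065) and Txk (0.55). Of 97 genes called against the cycling counterpart, 78 were kept with DESeq2, 82 without the first run, 79 without the second and 90 of 96 without the third, and 0 reversed. The causes were not tested. The members of the second run, with 240190 UMIs, set the least precise values.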
